A study of Mus musculus with 10 samples.

Results

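The interferon-inducible GTPases described here are 10 genes of the guanylate-binding protein (GBP) and immunity-related GTPase (IRG) families: Gbp2, Gbp3, Gbp7, Igtp, Irgm1, Irgm2, Iigp1, Tgtp1, Tgtp2 and Ifi47. They were taken by name from the count tables, which list 41743 gene names, and all 10 were present and passed the filter on low counts that left 12595 genes for testing. Poly-A RNA was sequenced from K7M2, a mouse osteosarcoma (bone tumour) cell line, and from 4 lines derived from it, in 10 libraries with 2 per line. The T567A line lacked functional endogenous ezrin after CRISPR/Cas9 disruption of both alleles of Ezr and stably carried an ezrin cDNA with alanine in place of threonine T567, which cannot be phosphorylated there. In the T567D line the same disrupted background carried ezrin with aspartate at that residue, which mimics the phosphorylated form. The wild-type line carried unchanged ezrin in the disrupted background, and the empty-vector line carried the vector without ezrin. Parental cells had both their Ezr alleles and no vector. No cells received interferon or any other treatment, per the labels. The derived lines share 1 tag in their titles, read here as 1 disrupted clone, and every construct is represented by a single stable line, so that construct and line cannot be told apart. Whether the 2 libraries per line stem from separate cultures is not stated, and the p-values therefore reflect spread between libraries that may be no more than technical.

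GBP and IRG proteins are GTPases that interferons, above all interferon-gamma, induce in most mouse cell types, including cells that are not of the immune system. After induction they gather on the vacuoles in which intracellular bacteria and parasites live, where they help to open the vacuole and expose the microbe. The GBPs are large GTPases related to dynamins. Among the IRGs, the regulators Irgm1, Irgm2 and Igtp (also called Irgm3) sit on the cell's own membranes and keep the effectors inactive there, and Iigp1 (Irga6), Tgtp1 and Tgtp2 (2 copies of Irgb6) and Ifi47 (Irgd) are effectors that load onto vacuoles. Transcription of these genes is known to run through JAK-STAT signalling and interferon regulatory factors, whose binding motifs include the interferon-stimulated response element (ISRE) and the gamma-activated site (GAS).

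On GRCm38, annotated by GENCODE M21, Gbp7 (chr3:142530342-142550149), Gbp3 (chr3:142560026-142573209) and Gbp2 (chr3:142620602-142638008) lie on the plus strand of chromosome 3. Irgm1 (chr11:48861968-48871683), Tgtp1 (chr11:48985327-48994172) and Tgtp2 (chr11:49057194-49064206) lie on the minus strand of chromosome 11. Ifi47 (chr11:49076587-49096974), Igtp (chr11:58199556-58207591) and Irgm2 (chr11:58199618-58222782) lie on its plus strand. The remaining member, Iigp1, lies on another chromosome. Igtp and Irgm2 overlap, with 162 shared exonic bases, and the longest coding transcripts of Tgtp1 and Tgtp2 differ at 6 of 2810 aligned bases (99.8% identity), so that reads may have been split between such neighbours in an unknown way.

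The promoters are shown because most of the members' promoter windows hold the same short motifs. The members were listed as interferon-inducible genes, and some have near-identical promoters, so the shares below are background and not a test. The part of the motifs in the levels of these genes was not tested. RefSeq promoter windows on GRCm38.p6, 250 bases before to 50 bases after the annotated start, were found for 9 of the 10 members, with 2 windows for Gbp3, and not for Iigp1. An ISRE core was searched on both strands as GAAA, any 2 bases and GAAA again, which reads TTTC, 2 bases and TTTC on the other strand. It was present in the windows of 8 of these 9 genes and in 3.44% of all 32851 mouse promoter windows of this length. A GAS core, searched as TTCNNNGAA, which reads the same on both strands, was present for 5 of the 9 genes and in 8.3% of all windows. Both were present for the same 5 genes and in 0.454% of all windows. The Ifi47 window and the second Gbp3 window held no match, which says only that these letters are not in those windows. The following stretches of 60 bases run 5′ to 3′ on the strand of the gene, with each ISRE or GAS core in capitals; overlapping matches form 1 run of capitals in Gbp3 and in Irgm1.
Gbp2, chr3:142620589-142620648, plus strand: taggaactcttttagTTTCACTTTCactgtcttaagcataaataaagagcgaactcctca
Gbp3, chr3:142559984-142560043, plus strand: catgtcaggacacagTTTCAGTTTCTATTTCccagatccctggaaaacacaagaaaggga
Gbp7, chr3:142530268-142530327, plus strand: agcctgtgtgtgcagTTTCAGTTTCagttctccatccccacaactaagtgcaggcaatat
Igtp, chr11:58199496-58199555, plus strand: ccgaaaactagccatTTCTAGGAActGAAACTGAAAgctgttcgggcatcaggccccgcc
Irgm1, chr11:48871406-48871465, minus strand: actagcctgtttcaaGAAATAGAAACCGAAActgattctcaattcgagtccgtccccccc
Irgm2, chr11:58214887-58214946, plus strand: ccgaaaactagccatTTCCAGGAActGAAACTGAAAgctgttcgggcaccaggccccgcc
Tgtp1, chr11:48992290-48992349, minus strand: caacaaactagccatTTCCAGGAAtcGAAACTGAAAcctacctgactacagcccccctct
Tgtp2, chr11:49064249-49064308, minus strand: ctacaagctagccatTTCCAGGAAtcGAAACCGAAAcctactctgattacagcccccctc

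In Igtp, Irgm2, Tgtp1 and Tgtp2 the GAS core came first and the ISRE core followed after a gap of 2 bases. Compared position by position without gaps, the stretches of Igtp and Irgm2 differed at 2 of 60 positions, those of Tgtp1 and Tgtp2 at 16 and those of Irgm2 and Tgtp1 at 19. Tgtp2 holds an extra base relative to Tgtp1 shortly after the ISRE core, which puts the following bases out of register. The 16 therefore overstates how far the stretches of these copies differ. The first base of the ISRE core lay 59 bases before the RefSeq start in Gbp2, 45 and 39 in Gbp3, 53 in Gbp7, 34 in Igtp, 30 and 24 in Irgm1, 64 in Irgm2, 77 in Tgtp1 and 70 in Tgtp2. RefSeq starts differ from the GENCODE spans given above. The stretches of Irgm1, Irgm2 and Tgtp1 lie wholly inside those spans, so the distances do not run from the ends of the spans. Gbp7 was the only member with 2 GAS cores, 106 and 87 bases before the start, and its whole window of 300 bases shows their place ahead of the ISRE core, again with the cores in capitals.
Gbp7, chr3:142530086-142530385, plus strand: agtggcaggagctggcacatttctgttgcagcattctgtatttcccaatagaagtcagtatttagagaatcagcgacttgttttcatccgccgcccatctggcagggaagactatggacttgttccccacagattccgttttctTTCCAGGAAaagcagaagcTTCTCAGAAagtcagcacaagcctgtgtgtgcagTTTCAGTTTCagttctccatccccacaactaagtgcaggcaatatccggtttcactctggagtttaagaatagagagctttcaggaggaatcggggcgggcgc

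**Figure D1:**
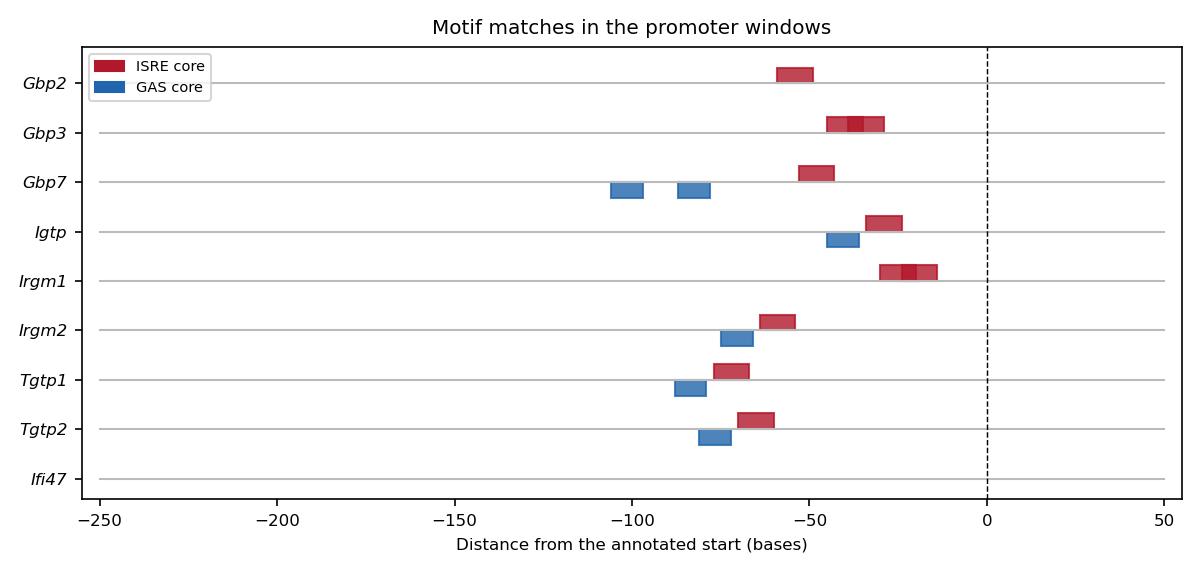
Motif matches in the promoter windows of 9 members, by distance in bases from the start annotated by RefSeq (dashed line at 0), with ISRE cores in red above each line and GAS cores in blue below it. Gbp3 is drawn by its first window. Matches lie between 106 and 15 bases before the start, and the Ifi47 line carries none.

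Total counts per library lay between 14679424 and 18230763, the lowest and the highest both in the T567A line, and 3 counts in a library, used as a floor, equalled 0.167 to 0.207 CPM (counts per 1000000 counts of the TMM-scaled library). The 2 libraries of every line differed by more than sampling noise, with a chi-square of counts per degree of freedom of 8.45 in the T567A line and of 2.44 to 4.35 in the other lines. Ezr, the targeted gene, averaged 250.3 CPM in the T567A line, 192.7 in T567D, 232.0 in wild type, 72.64 in the empty-vector line and 164.9 in parental cells. Counts per gene do not separate the vector's Ezr mRNA from the cell's own. The bone label was met in part by a list of 9 osteoblast markers. Its members Runx2, Col1a1, Col1a2 and Spp1 were expressed in every line, while Dlx5 had no count in any library and Sp7, Ibsp and Bglap averaged at most 0.174 CPM in any line. Among 13 immune cell markers, Adgre1, Cd3e, Nkg7 and Ncr1 had no count in any library and Ptprc, the leukocyte marker CD45, averaged 0.207 CPM in the T567A line and at most 0.0578 CPM in the others. The T567A mean of Ptprc came from 6 counts in replicate 2 and 0 in replicate 3, and the gene was not tested. The summed level of the immune list was 1561 to 1685 CPM in T567A libraries, 1344 to 1357 in T567D, 1384 to 1395 in wild type, 1552 to 1598 in empty-vector and 1179 to 1187 in parental libraries. Nearly all of this sum was Csf1r, the receptor for macrophage colony-stimulating factor, at a mean of 1619 CPM in T567A, 1345 in T567D, 1384 in wild type, 1572 in the empty-vector line and 1180 in parental cells. The part of these markers in the GTPase levels was not tested. In these bulk samples, fewer cells expressing a gene and less RNA of it per cell cannot be told apart.

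All 10 GTPase genes were higher in the T567A line than in the wild-type line, by 2.26-fold for Gbp2 to 5.33-fold for Iigp1. They reached 2330 and 2181 CPM in sum in the T567A libraries, against 773.4 and 789.7 in T567D, 765.5 and 761.5 in wild-type, 829.0 and 839.9 in empty-vector and 695.8 and 707.3 in parental libraries. For each of the 10 genes, both T567A libraries lay above all the other 8 libraries, which was true of 16.8% of the tested genes. The members were chosen with earlier results of these data known, so such shares are given as background and not as a test. The comparison of T567A with wild-type ezrin asks what an unphosphorylatable residue changes, and edgeR's quasi-likelihood test called 39.6% of all tested genes in it with 20.4% higher and 19.1% lower, at a Benjamini-Hochberg adjusted p under 0.05 over all tested genes. Of the members, 10 of 10 were called higher. The median log2 fold change of the members was 1.67, beside -0.00036 over all tested genes.

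Among the GBPs, Gbp3 had 471.7 and 440.7 CPM in T567A libraries, 145.0 and 148.5 in T567D, 142.9 and 140.0 in wild-type, 180.5 and 182.7 in empty-vector and 102.9 and 111.5 in parental libraries. The T567A libraries stood far above the rest, the empty-vector libraries came next and the parental libraries were lowest, with no overlap between these groups. Its log2 fold change in T567A against wild type was 1.69 ± 0.062 (SE; n = 2 libraries per line; edgeR adjusted p = 1.3e-14). Gbp2, a GBP that coats the vacuole of Toxoplasma gondii in mouse cells, had 224.9 and 231.5 CPM in T567A libraries, 99.34 and 94.56 in T567D, 102.7 and 99.28 in wild-type, 124.4 and 126.7 in empty-vector and 49.05 and 53.21 in parental libraries. T567D and wild-type libraries overlapped, and the other groups were apart from them and from each other. The change of Gbp2 in T567A against wild type, 1.18 ± 0.063 (edgeR adjusted p = 4.6e-12), was the lowest of the 10 members. Gbp7, linked in mouse macrophages to assembly of the phagosomal NADPH oxidase, had 348.1 and 291.1 CPM in T567A libraries, 91.84 and 99.18 in T567D, 99.1 and 101.8 in wild-type, 114.6 and 117.1 in empty-vector and 93.63 and 99.18 in parental libraries. Here the 2 T567A libraries differed more from each other than those of any other line, yet both lay above every other library. Gbp7 was higher in T567A than in wild type by 1.67 ± 0.075 (edgeR adjusted p = 4.6e-13).

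The 3 IRG regulators were also higher in the T567A line. Igtp had 172.0 and 183.6 CPM in T567A libraries, 55.97 and 58.91 in T567D, 54.41 and 56.84 in wild-type, 60.7 and 58.65 in empty-vector and 49.22 and 44.51 in parental libraries. Irgm1, a regulator also tied to mitochondria and autophagy in mouse cells, had 356.0 and 368.2 CPM in T567A libraries, 166.4 and 167.7 in T567D, 156.8 and 152.8 in wild-type, 163.5 and 163.0 in empty-vector and 173.9 and 166.2 in parental libraries. Irgm2 had 213.8 and 189.1 CPM in T567A libraries, 80.52 and 81.29 in T567D, 75.19 and 83.69 in wild-type, 81.9 and 86.24 in empty-vector and 74.1 and 75.55 in parental libraries. Outside the T567A line the 3 regulators varied little: Irgm1 and Irgm2 passed the test in none of the 6 comparisons among the other 4 lines, and Igtp was called only where parental cells were the comparator. Against wild type, T567A was higher by 1.68 ± 0.069 for Igtp, 1.23 ± 0.058 for Irgm1 and 1.34 ± 0.072 for Irgm2, with edgeR adjusted p of 7.6e-14, 8e-13 and 4.6e-12. Of 100-base windows of the longest coding transcript, 5.67% in Igtp and 2.48% in Irgm2 are identical in the other gene, and none in Irgm1 are shared with another gene.

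Iigp1, the effector whose loading on the Toxoplasma vacuole is a standard readout of the IRG system, had the largest rise of the 10 in T567A against wild type. It lies on the plus strand of chromosome 18, at 60376027 to 60392634. Its levels were 250.7 and 190.1 CPM in T567A libraries, 42.39 and 40.15 in T567D, 40.15 and 42.39 in wild-type, 38.04 and 40.02 in empty-vector and 34.93 and 36.93 in parental libraries. The 8 other libraries spanned less than the gap between the 2 T567A libraries. The change was 2.41 ± 0.1 (edgeR adjusted p = 9.4e-11), with a 95% interval of 2.19 to 2.64 that lay above the intervals of the other 9 members, which ended at 2.04 or below.

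Tgtp1 had 70.01 and 76.14 CPM in T567A libraries, 21.37 and 18.18 in T567D, 21.42 and 19.37 in wild-type, 12.6 and 12.09 in empty-vector and 33.07 and 33.6 in parental libraries. Tgtp2 had 168.5 and 148.9 CPM in T567A libraries, 45.05 and 51.37 in T567D, 48.01 and 39.64 in wild-type, 28.94 and 32.39 in empty-vector and 55.44 and 56.77 in parental libraries. For both copies, T567A libraries were highest, parental libraries second and empty-vector libraries lowest, and T567D overlapped with wild type. Against wild type they rose in T567A by 1.84 ± 0.088 and 1.86 ± 0.09 (edgeR adjusted p of 8e-13 and 5e-12). Because 83.3% of 100-base windows of Tgtp1 and 80.4% of those of Tgtp2 occur in another gene, mainly the other copy, their separate levels are uncertain. Counts summed over both copies rose by 1.85 ± 0.074. Ifi47 had 54.33 and 61.17 CPM in T567A libraries, 25.59 and 29.81 in T567D, 24.85 and 25.71 in wild-type, 23.91 and 21 in empty-vector and 29.58 and 29.81 in parental libraries. Ifi47 rose by 1.19 ± 0.09 in T567A against wild type (edgeR adjusted p = 1.1e-09), close to Gbp2 in size and without an ISRE or GAS core in its window.

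**Figure D2:**
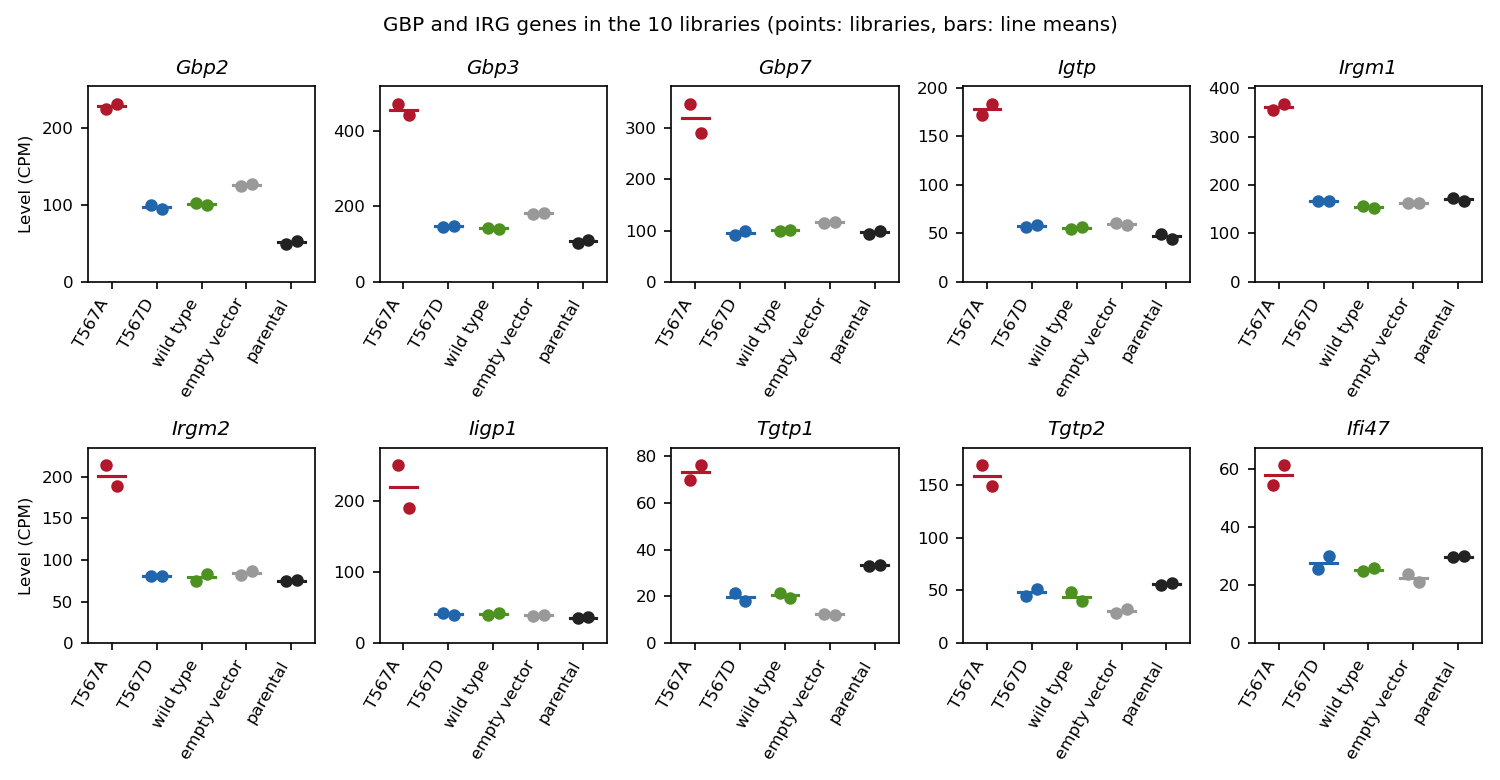
Level of each of the 10 genes in CPM (vertical axes from 0, different for each gene), with 1 point per library and a bar at the mean of the 2 libraries of a line. In every panel both T567A points lie above the 8 others; Gbp2 and Gbp3 are lowest in parental libraries, and Tgtp1 and Tgtp2 are lowest in empty-vector libraries.

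The other comparisons of the T567A line use the same T567A libraries, so they are not independent of the one against wild type, and their values are set side by side. Against T567D, where 44.1% of tested genes were called and 22.5% were higher and 21.6% lower, 10 of 10 members were higher, with log2 fold changes of 1.06 for Ifi47 to 2.41 for Iigp1 and a median of 1.63. Against the empty-vector line, where 46.4% of tested genes were called and 23.7% were higher and 22.7% lower, 10 of 10 were higher, from 0.86 for Gbp2 to 2.57 for Tgtp1, with a median of 1.41. Against parental cells, where 62.1% of tested genes were called and 31.4% were higher and 30.7% lower, 10 of 10 were higher, from 0.96 for Ifi47 to 2.61 for Iigp1, with a median of 1.61. The median over all tested genes lay between 0.0039 and 0.0097 in these 3 comparisons. Gbp2 was 1.82-fold higher in T567A than in the empty-vector line and 4.46-fold higher than in parental cells, since those lines themselves differed. For Tgtp1 the order was the other way round, with 5.92-fold against the empty-vector line and 2.19-fold against parental cells. Iigp1 differed little by comparator, with 5.33-fold against T567D, 5.64-fold against the empty-vector line and 6.12-fold against parental cells.

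The T567D line asks the same question for a residue that mimics phosphorylation, and none of the 10 GTPase genes passed the test against wild type. Of all tested genes, 1.34% were called in this comparison, 0.818% higher and 0.524% lower, and of the members 0 of 10 by edgeR's quasi-likelihood test, with 0 at an unadjusted p under 0.05. DESeq2 and limma on log2(RPKM + 1) also called 0 of 10, with 0 at an unadjusted p under 0.05 each. Log2 fold changes lay between -0.07 for Gbp7 and 0.14 for Tgtp2, with a median of 0.04 beside 0.0022 over all tested genes. The 95% intervals reached from -0.25, the lower end for Tgtp1, to 0.34, the upper end for Tgtp2. For Iigp1, at 41.27 ± 1.6 CPM in T567D and 41.27 ± 1.6 CPM in wild type (SD, n = 2 each), the interval was -0.24 to 0.24. The highest upper end, 0.34, lay below the smallest change of a member in T567A against wild type, 1.18.

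In the ezrin-disrupted line with empty vector, the GBPs and Igtp rose relative to parental cells, the Tgtp genes and Ifi47 fell, and Irgm1, Irgm2 and Iigp1 did not pass the test. Calls were common in this comparison, with 54.6% of all tested genes called, 27.4% higher and 27.2% lower. Of the members 7 of 10 were called, 4 higher and 3 lower, a count not far from that share. Gbp2 averaged 125.6 ± 1.6 CPM in the empty-vector line and 51.13 ± 2.9 in parental cells (SD, n = 2 each), a log2 fold change of 1.3 ± 0.067 (edgeR adjusted p = 6.7e-13). Gbp3 rose by 0.76 ± 0.063, Igtp by 0.35 ± 0.073 and Gbp7 by 0.27 ± 0.077, with edgeR adjusted p of 1.4e-09, 0.00039 and 0.0058. Tgtp1 averaged 12.35 ± 0.36 CPM in the empty-vector line and 33.34 ± 0.38 in parental cells, a log2 fold change of -1.43 ± 0.099 (edgeR adjusted p = 7.2e-11). The corresponding changes were -0.87 ± 0.098 for Tgtp2, -1.06 ± 0.078 for both copies summed and -0.4 ± 0.097 for Ifi47, with edgeR adjusted p of 2.9e-07, 2e-10 and 0.0013. The median over the members was 0.14 and that over all tested genes was 0. Disruption of Ezr, derivation of the line and transfection change together against parental cells, so their parts cannot be told apart. The Gbp7 call was lost without parental replicate 1 (edgeR adjusted p = 0.074).

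Wild-type ezrin in the disrupted background was set against empty vector to ask what the return of ezrin changes, and the members called here had the sign opposite to that in empty vector against parental cells. Of the tested genes 15.6% were called, 8.25% higher and 7.36% lower, and of the members 4 of 10, with 2 higher and 2 lower. Gbp2 averaged 101.0 ± 2.4 CPM in the wild-type line and 125.6 ± 1.6 in the empty-vector line, a log2 fold change of -0.31 ± 0.064 (edgeR adjusted p = 0.0018), and Gbp3 changed by -0.36 ± 0.062 (edgeR adjusted p = 0.00044). Tgtp1 averaged 20.39 ± 1.4 CPM in the wild-type line and 12.35 ± 0.36 in the empty-vector line, a rise of 0.72 ± 0.11 (edgeR adjusted p = 6.8e-05). Tgtp2 rose by 0.52 ± 0.1 (edgeR adjusted p = 0.0015), a call that was lost without wild-type replicate 1 (edgeR adjusted p = 0.05, at the threshold). The remaining 6 members, among them Gbp7 at -0.21 ± 0.076 and Ifi47 at 0.17 ± 0.098, did not pass the test. Both comparisons share the empty-vector libraries, so that an error in these 2 libraries would give opposite signs in them.

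T567D ezrin against empty vector used the same 2 empty-vector libraries, and 6 of 10 members were called, 3 higher and 3 lower, where 17.8% of tested genes were called, 9.43% higher and 8.34% lower. Gbp2 changed by -0.37 ± 0.064, Gbp3 by -0.31 ± 0.062 and Gbp7 by -0.28 ± 0.077, while Tgtp1 rose by 0.68 ± 0.11, Tgtp2 by 0.65 ± 0.099 and Ifi47 by 0.3 ± 0.097, with edgeR adjusted p from 0.00014 for Tgtp1 to 0.036 for Ifi47. The Gbp7 call was lost without empty-vector replicate 2, empty-vector replicate 3 or T567D replicate 1 (edgeR adjusted p of 0.066, 0.093 and 0.12). The Ifi47 call was lost without empty-vector replicate 2, empty-vector replicate 3 or T567D replicate 3 (edgeR adjusted p of 0.051, 0.31 and 0.36), and by DESeq2 (adjusted p = 0.085). Levels of Gbp2 and Tgtp1 in the wild-type and T567D lines differed from those of parental cells, which also differ from these lines in derivation and transfection. Against parental cells, Gbp2 was 1.9-fold higher in T567D and 1.97-fold higher in wild type, and Tgtp1 was at 0.593-fold in T567D and 0.612-fold in wild type. Counts summed over Tgtp1 and Tgtp2 had log2 fold changes against parental cells of -0.4 ± 0.075 in T567D and -0.48 ± 0.075 in wild type. In T567D against parental cells 4 of 10 members were called, 3 higher and 1 lower, beside 55.4% of tested genes, 27.1% higher and 28.2% lower. In wild type against parental cells 6 of 10 were called, 3 higher and 3 lower, beside 56.2% of tested genes, 27.7% higher and 28.5% lower, and the count fell to 3 without wild-type replicate 3. The Ifi47 change in wild type against parental cells, -0.23 ± 0.095 (edgeR adjusted p = 0.043), was not called after leaving out any 1 of the 4 libraries (edgeR adjusted p from 0.083 to 0.16). In the same comparison the Igtp and Tgtp2 calls were lost without wild-type replicate 3 (edgeR adjusted p of 0.081 and 0.078).

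**Figure D3:**
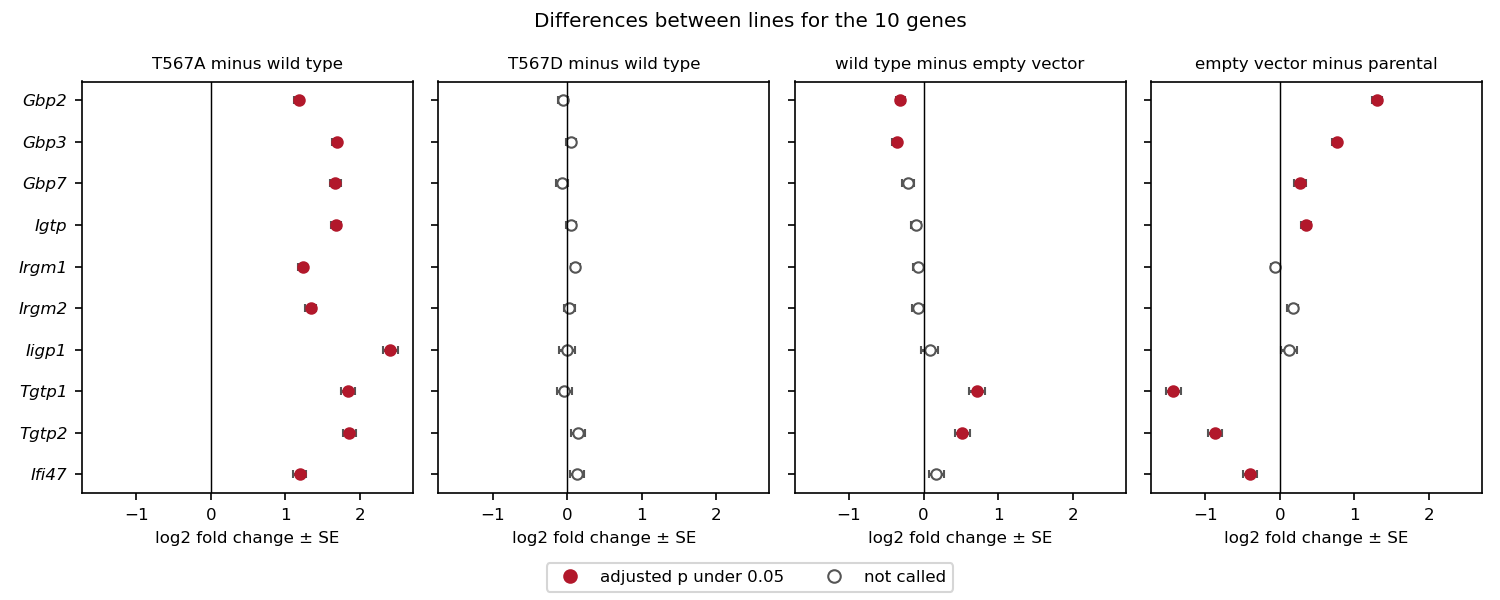
Log2 fold change (points, with SE bars, n = 2 libraries per line) of each of the 10 genes in 4 comparisons: T567A and T567D, each minus wild type, wild type minus empty vector, and empty vector minus parental; points are filled where the adjusted p is under 0.05. In T567A minus wild type all points lie between 1.18 and 2.41, in T567D minus wild type all are open, and in wild type minus empty vector and empty vector minus parental the filled points of Gbp2 and Gbp3 lie opposite to those of Tgtp1 and Tgtp2.

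Ordered by mean level, every member was highest in the T567A line and the order below it differed between members. For Gbp2 the order was T567A, empty vector, wild type, T567D and parental cells, and of these neighbours only wild type and T567D did not differ past the test. Gbp3 had the order T567A, empty vector, T567D, wild type and parental cells, again with only T567D and wild type not told apart. For Tgtp1 and Tgtp2 parental cells came second and the empty-vector line last. Below T567A, no neighbours in the order passed the test for Gbp7, Irgm1, Irgm2, Iigp1 or Ifi47. Igtp was in the same position except that its last step, wild type over parental cells, passed the test (0.25 ± 0.074, edgeR adjusted p = 0.0071). That last call was lost without parental replicate 3 or wild-type replicate 3 (edgeR adjusted p of 0.12 and 0.081).

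On a scale per transcript length, the RPKM that the authors deposited, Gbp3 was the most abundant of the 10 in every line, at 129.0 ± 5.2 RPKM in T567A, 42.42 ± 0.6 in T567D, 40.87 ± 0.61 in wild type, 52.18 ± 0.48 in the empty-vector line and 29.92 ± 1.7 in parental cells (SD, n = 2 each). Gbp2 followed in T567A at 83.73 ± 2.4 RPKM and Igtp at 81.19 ± 4.4. Iigp1 was at 34.92 ± 6.5 RPKM in T567A, 6.691 ± 0.28 in T567D, 6.685 ± 0.25 in wild type, 6.289 ± 0.23 in the empty-vector line and 5.623 ± 0.23 in parental cells. By this level it was the least abundant member in parental cells, while in T567A it stood above Tgtp1 at 21.05 ± 1.4 and Ifi47 at 21.57 ± 2. Every member was thus transcribed in cells without added interferon in every line, at a lowest line mean of 3.614 ± 0.11 RPKM, which was that of Tgtp1 in the empty-vector line.

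As a description over the 10 libraries, which share lines, the log2 CPM of single members followed the mean profile of the 10 with a Pearson r of 0.794 for Gbp2 and 0.843 for Tgtp1 up to 0.996 for Iigp1, each member being part of that mean. The lowest r between 2 members was 0.36, for Gbp2 and Tgtp1. Among 1565 tested genes with at least 5 CPM and a range of at least 1 on the log2 scale, the non-members most like the mean profile were Oasl2 (r = 0.99), Dtx3l (0.99), Tlr3 (0.988), Gm4951 (0.988), Dhx58 (0.987) and Usp18 (0.987). Tlr3, the endosomal receptor for double-stranded RNA, averaged 125.9 CPM in T567A, 34.41 in T567D, 35.21 in wild type, 35.01 in the empty-vector line and 28.92 in parental cells. Oasl2, a relative of the oligoadenylate synthetases, averaged 390.4 CPM in T567A and between 175.4 and 194.2 CPM in the other lines. Dhx58, which encodes the cytosolic RNA sensor LGP2, averaged 87.54 CPM in T567A and between 29 and 34.63 CPM in the other lines.

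Most other genes of both families were also higher in the T567A line. Of 18 further GBP and IRG genes, 17 were in the tables and 16 were tested, and in T567A against wild type 14 were called higher and 1 lower, beside 20.4% higher and 19.1% lower of all tested genes, with a median log2 fold change of 1.47. The largest changes among them were those of Gm4951, an IRG gene, with 36.94 ± 3.5 CPM in T567A and 8.763 ± 0.048 in wild type (2.07 ± 0.11, edgeR adjusted p = 5.5e-12), Gbp10 (1.99 ± 0.21), Gbp11 (1.94 ± 0.36) and Gbp6 (1.9 ± 0.16). Irgq, a distant IRG relative, was the gene called lower, with 32.5 ± 0.56 CPM in T567A and 44.09 ± 1.8 in wild type (-0.44 ± 0.079, edgeR adjusted p = 0.00015). In T567D against wild type edgeR called 0 of the 16, with 1 at an unadjusted p under 0.05; DESeq2 and limma also called 0, with 1 each at an unadjusted p under 0.05. Without the low-count filter edgeR called 1 of the 16 lower. In empty vector against parental cells 54.6% of all tested genes were called, 27.4% higher and 27.2% lower. Of the 16, 8 were higher and 1 was lower, near that share in total but not by direction, with a median of 0.49. Gbp2b, chosen after its values were seen, was among those higher, with 70.62 ± 4.9 CPM in the empty-vector line and 23.53 ± 0.64 in parental cells (1.59 ± 0.079, edgeR adjusted p = 3.9e-13). Of 3 other interferon-induced large GTPases, Mx1 and Mx2, antiviral dynamin relatives, were called higher in T567A against wild type, by 2.62 ± 0.28 and 1.88 ± 0.14. Gvin1 did not pass the test at 2.63 ± 1.6 (edgeR adjusted p = 0.28).

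Of 18 genes for interferon receptors, JAK-STAT signalling and interferon regulatory factors, 17 were tested, and in T567A against wild type 11 were higher and 2 lower, beside 20.4% and 19.1% of all tested genes, with a median of 0.44. Among the called genes with the largest changes were Usp18, an inhibitor of type I interferon receptor signalling (1.58 ± 0.062), Stat2, a subunit of the factor that type I interferons activate (1.4 ± 0.08), and Nlrc5, an activator of MHC class I genes (1.35 ± 0.12). Stat2 averaged 291.0 ± 9 CPM in T567A, 108.0 ± 16 in T567D, 110.4 ± 0.67 in wild type, 125.3 ± 1.1 in the empty-vector line and 79.58 ± 7.3 in parental cells. Nlrc5 averaged 54.39 CPM in T567A and 41.46 in parental cells, against 22.45 in T567D, 21.26 in wild type and 21.55 in the empty-vector line. In T567D against wild type edgeR called 0 of the 17, with 2 at an unadjusted p under 0.05, and DESeq2 and limma gave the same counts. Without the low-count filter edgeR called 1 of the 17 lower.

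Of 10 interferon genes, 1 had enough counts to be tested. Ifnb1, which encodes interferon-beta, had 16 and 18 counts in T567A libraries, 3 and 3 in T567D, 4 and 6 in wild-type, 9 and 4 in empty-vector and 5 and 3 in parental libraries. It was higher in T567A than in wild type by 1.84 ± 0.48 (edgeR adjusted p = 0.0044), at 1.053 ± 0.073 CPM in T567A and 0.2878 ± 0.078 CPM in wild type. That call was lost without wild-type replicate 1 (edgeR adjusted p = 0.063). Ifng, the gene for interferon-gamma, had at most 2 counts in any library. Expression of an interferon by these cells or its presence in the medium was not measured beyond these mRNA counts, and its part in the GTPase levels was not tested.

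**Figure D4:**
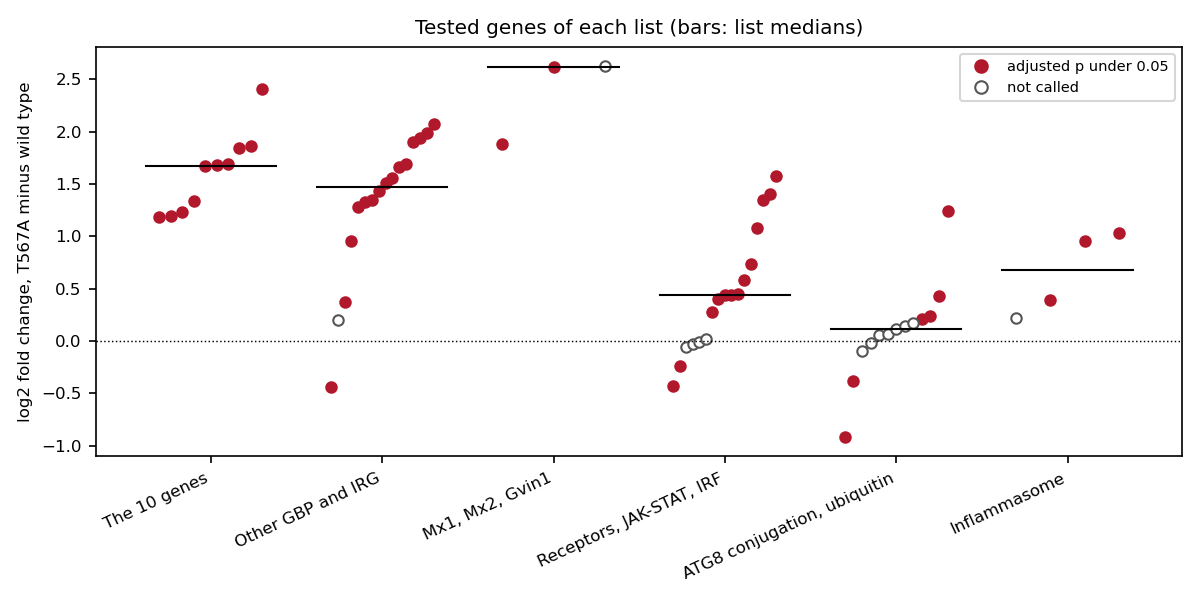
Log2 fold change in T567A minus wild type of each tested gene in 6 lists (points, filled where the adjusted p is under 0.05; bars at list medians). The medians were 1.67 for the 10 genes, 1.47 for the other GBP and IRG genes and 0.44 for the receptor, JAK-STAT and IRF genes, and those 10 points all lie above 1.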

How the data were processed

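Gene-level raw counts and RPKM values were deposited by the authors as 1 pair of tables per library, over 41743 gene names. Reads came from poly-A, dUTP strand-marked libraries sequenced on a DNBSEQ instrument, per the labels' protocols, and GRCm38 is the build in the submitters' processing notes. For the aligner, the counter, the annotation and the strand setting, a source is lacking (not given in the sources used here). Counts of overlapping or near-identical genes are therefore uncertain. The RPKM values deposited by the authors are counts per length and depth and served for levels between genes and for limma.

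The main test was that of edgeR 4.0.16 under R 4.3.3: filterByExpr (minimum count 10, minimum total 15) kept 12595 genes, TMM scaled the libraries, and 1 robust quasi-likelihood fit of 5 groups of 2 left 5 residual degrees of freedom. Tests were two-sided, adjusted by Benjamini-Hochberg over all tested genes and called under 0.05. Alternatives were RLE and upper-quartile scaling, 2 other low-count filters, DESeq2 1.42.0, limma 3.58.1 on log2(RPKM + 1) and log2(RPKM + 0.1), a replicate block, the 2 lines alone, summed Tgtp counts and each library left out. The fit was also run on counts simulated from its own estimates of spread, which cannot show whether those estimates hold between separate cultures. Same-numbered libraries of different lines did not deviate together (14 pairs, r from -0.1 to 0.071), so the numbers were not taken to pair them. With 2 libraries per line the deviations of a line mirror each other, so the 14 values are not independent and decide little about pairing.

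The members and lists were chosen with earlier results of these data known. All 10 members were named, and of each other list up to 4 called genes with the largest change in T567A against wild type and at least 1 CPM; Irgq, Gbp2b, Gvin1 and Ifng were named after their values were seen. Some genes that the rule or the marker lists hold are not reported here. The 6 genes most like the members were ranked by Pearson r. Motifs were searched in RefSeq promoter windows (GRCm38.p6), positions come from GENCODE M21, and figures were drawn with matplotlib 3.10.9.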

Additional observations from a re-analysis of the deposited data

How the results depend on the processing

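Of 100 results (10 genes in 10 comparisons), 80 kept their direction and their side of the threshold under all alternatives run for them, 13 changed sides in at least 1, and 7 that were never called changed sign, all between lines other than T567A. In T567D against wild type these were Iigp1 (0 in the fit reported; -0.01 without a low-count filter and under upper-quartile scaling, 0 under RLE scaling, the 5 CPM filter, DESeq2 and the 2 lines alone, -0.04 to 0.04 with 1 library left out), Irgm2 (-0.05 to 0.11 with 1 library left out) and Tgtp1 (0.08 summed, -0.17 to 0.07 with 1 library left out). In T567D against parental cells they were Gbp7 (0.02 under the 5 CPM filter and upper-quartile scaling, 0 with the 2 lines alone, 0.03 and 0.04 by limma with pseudocounts of 1 and 0.1, -0.07 to 0.04 with 1 library left out) and Irgm1 (0.01, 0, 0.02 and 0.03 under that filter, that scaling and limma, -0.06 to 0.01 with 1 library left out). The last were Irgm2 in T567D against empty vector (0.01 with the replicate block) and in wild type against parental cells (0 to 0.16 with 1 library left out). All 40 results of the T567A line were kept, with a highest adjusted p of 8.1e-06. The count of members called changed by more than 1.5 times in 1 comparison, wild type against parental cells, where 6 were called: leaving out 1 library gave 3 to 5, with 3 without wild-type replicate 3 and 5 without parental replicate 1. Ifi47 in that comparison lost its call in 11 of 14 alternatives (adjusted p from 0.021 to 0.16). With the replicate number as a block (replicate block), 4 members were called in T567D against empty vector, 5 in wild type against parental cells and 6 in empty vector against parental cells, against 6, 6 and 7 without it, and 10 and 0 in T567A and T567D against wild type as before. The block ended the calls of Gbp7 (adjusted p = 0.23) and Ifi47 (0.082) in T567D against empty vector, of Gbp7 (0.14) in empty vector against parental cells, and of Ifnb1 (0.066) in T567A against wild type. Irgm2, not called in empty vector against parental cells, was called under 4 alternatives (lowest adjusted p of 0.021), as was Tgtp2 in T567D against parental cells (0.00013 with both copies summed). Without a low-count filter or with the 2 lines alone, calls were gained by Gbp7 in wild type against empty vector (lowest adjusted p of 0.011) and by Iigp1 in T567D and in wild type against parental cells (0.023 and 0.016). Of 23 named genes of the other lists, 4 lost their call in T567A against wild type under at least 1 alternative: Ifnb1, Atg7, Lyz2 and Spp1. The alternatives for these lists were added after the data were seen. The block fit called 26.6% of tested genes in T567A against wild type, and DESeq2 30.1%, against 39.6%. In T567D against wild type, leaving out wild-type replicate 3 or 1 brought that share to 0.365% or 0.504%, against 1.34%. The block fit called 3 of the 13 ATG8 and ubiquitin genes in T567A against wild type, against 6 without it. The cause of these differences was not tested. Depth limits Ifnb1 and the other interferon genes, which had few or no counts.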

Other observations

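Of 8 inflammasome genes, 4 were tested, and edgeR called 3 as higher in T567A against wild type, beside 20.4% of all tested genes, with a median log2 fold change of 0.68 over the 4. Casp4, the mouse caspase-11 gene whose product senses bacterial lipopolysaccharide in the cytosol, had 46.99 ± 1.2 CPM in T567A, 22.81 ± 1.5 in T567D, 23.02 ± 1.6 in wild type, 24.27 ± 0.29 in the empty-vector line and 16.86 ± 0.66 in parental cells (SD, n = 2 each). Its change in T567A against wild type was 1.03 ± 0.084, and those of Casp1 and of Gsdmd, which encodes the pore-forming protein of pyroptosis, were 0.96 ± 0.074 and 0.39 ± 0.076 (edgeR adjusted p of 3.8e-09, 1.6e-09 and 0.00031).

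Of 13 genes for the conjugation of ATG8 proteins, which GBP and IRG loading depends on in mouse cells, and for ubiquitin on vacuoles, 4 were higher, 2 were lower and 7 did not pass the test, with a median of 0.12. The share called was near the 39.6% of all tested genes in this comparison. Trim21, a ubiquitin ligase that binds antibodies in the cytosol, had 67.46 ± 2.9 CPM in T567A and 28.61 ± 1.5 in wild type, a log2 fold change of 1.24 ± 0.082 (edgeR adjusted p = 1.5e-10). Atg12 rose by 0.43 ± 0.071, while the ATG8 gene Map1lc3a, with 6.932 ± 0.43 CPM in T567A and 13.14 ± 1.5 in wild type, changed by -0.92 ± 0.13 and Atg7 by -0.38 ± 0.098 (edgeR adjusted p of 6.5e-05, 9.6e-06 and 0.0043). The Atg7 call was lost without T567A replicate 2 (edgeR adjusted p = 0.07). In T567D against wild type edgeR called 0 of the 4 inflammasome genes, with 0 at an unadjusted p under 0.05, and 0 of the 13 others, with 1 at an unadjusted p under 0.05; DESeq2 and limma gave the same counts.

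Among the cell type markers, T567A against wild type called Alpl lower (-1.75 ± 0.18), Col1a1 higher (1.22 ± 0.07), Spp1 higher (0.25 ± 0.061), Csf1r higher (0.23 ± 0.056) and Lyz2, at 0.4097 ± 0.29 CPM in T567A and 1.729 ± 0.059 in wild type, lower (-1.99 ± 0.57). Col1a1 averaged 603.4 CPM in T567A, 734.6 in T567D, 259.1 in wild type, 323.6 in the empty-vector line and 1816 in parental cells. Alpl averaged 2.802 CPM in T567A, 12.92 in T567D, 9.603 in wild type, 5.636 in the empty-vector line and 1.979 in parental cells. The Spp1 call was lost without wild-type replicate 3 (edgeR adjusted p = 0.074), and the Lyz2 call without T567A replicate 2, wild-type replicate 1 or wild-type replicate 3 (edgeR adjusted p of 0.084, 0.05 and 0.056). The 1 tested gene of 3 endothelial markers was not called, and the list summed to between 1.381 and 2.314 CPM in all libraries.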
